A study of Mus musculus with 4 samples.

Results

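Hepatic steroid-metabolizing enzymes were followed as a group of 10 genes, found by gene name among the 25655 genes of the count table: Hsd3b5, Hsd3b2, Hsd3b3, Cyp17a1, Akr1d1, Akr1c6, Srd5a1, Hsd17b2, Cyp2d9 and Cyp4a12a. The group was chosen by a readout of these same samples, the higher counts of Hsd3b5 and Cyp17a1 in HFD-KO than in HFD-WT livers. Values of the 10 genes between genotypes are therefore given as a description, without a test. RNA was sequenced from livers of mice on the HFD (high-fat diet), which had started at 5 weeks of age and lasted 12 weeks, as 2 HFD-WT and 2 HFD-KO libraries. HFD-WT mice were ADAR2+/+ / GluR-B R/R and HFD-KO mice were ADAR2-/- / GluR-B R/R, on a B6129S background. Both genotypes thus carried the edited GluR-B allele, which averts the early death of mice lacking ADAR2, and ADAR2 was missing from the whole animal rather than from hepatocytes alone. The labels give neither the sex nor the number of mice behind a library. The study turned to male mice after its first experiments, and it names more mice per group for this experiment than there are libraries, without saying how they were divided or pooled. Whether the replicates are separate animals is thus not stated, so the p-values below measure only the spread between libraries, which may be technical, and "livers" stands for libraries of liver RNA. The Y-linked genes Ddx3y, Uty, Kdm5d and Eif2s3y had between 177 and 1073 counts in each library.

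The liver is the main site at which circulating steroids are reduced, oxidized and hydroxylated before excretion. Many of the enzymes differ between male and female mouse liver, a difference set by the pulsatile or near-continuous release of growth hormone and relayed by the transcription factor STAT5B. The 10 genes cover hydroxysteroid dehydrogenases, which exchange hydroxyl and keto groups, reductases, which saturate the first ring of the steroid, and P450 enzymes, which add oxygen.

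Total counts were between 24480798 and 28691330 per library. At this depth 3 counts, taken as the smallest amount a library can show, corresponded to between 0.104 and 0.126 CPM (counts scaled to a common library size after TMM adjustment), which covers counting error only. Adarb1, the gene of ADAR2, had 15.7 and 19.8 CPM in HFD-WT and 6.23 and 9.54 CPM in HFD-KO livers. Its log2 fold change was -1.17 ± 0.20 (± stands for the standard error throughout), with an adjusted p of 0.159 by edgeR with Benjamini-Hochberg adjustment and of 0.00069 by DESeq2. Which exons the remaining reads fell on cannot be read from counts of whole genes. Over all 12967 genes kept by the low-count filter of edgeR, 10 had an adjusted p under 0.05. The smallest two-sided p that an exact permutation test of 1 gene allows for 2 against 2 libraries is 0.333. Hepatocyte markers were abundant in all libraries, with 10 listed genes summing to between 84760 and 102900 CPM. In bulk liver, fewer cells of a type and less RNA per cell cannot be told apart.

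All 10 enzyme genes passed the filter. Both HFD-KO libraries lay above both HFD-WT libraries for 4 genes (20.5% of all genes tested): Hsd3b5, Cyp17a1, Hsd17b2 and Cyp2d9. None had both HFD-KO libraries below both HFD-WT libraries (20.4% of all genes tested), and the groups overlapped for the other 6 (59.2%). The median log2 fold change of the 10 genes was 0.06, beside 0.01 for all genes tested. Since the group was chosen on this contrast, nothing is read from these counts.

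**Figure D1:**
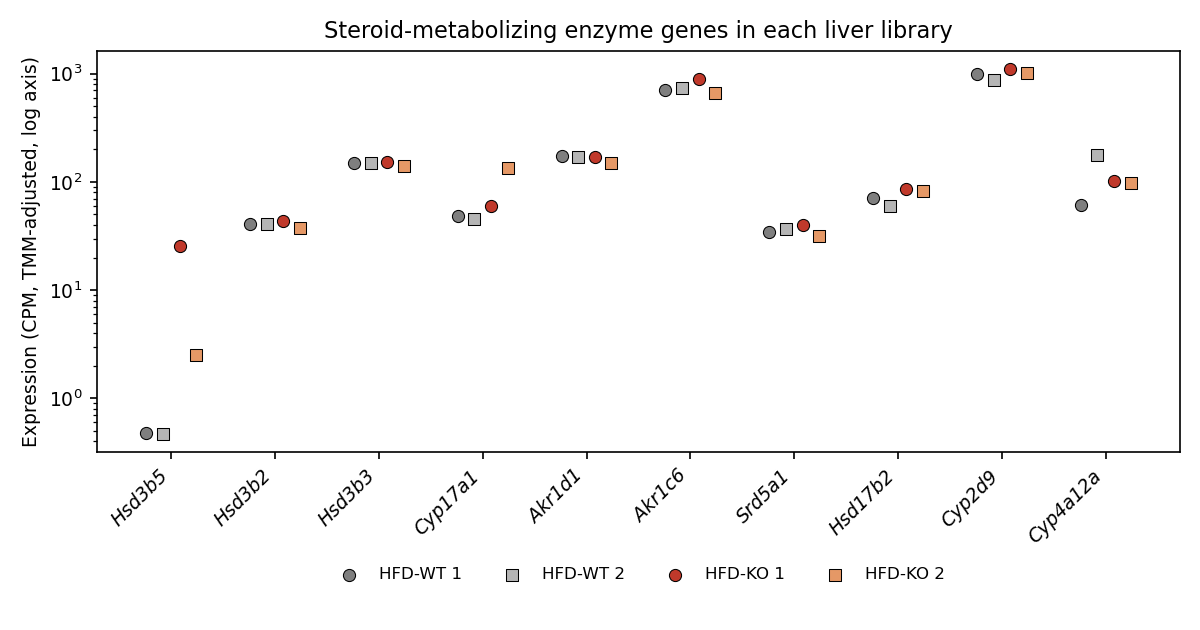
Expression of the 10 genes (x axis) in CPM on a log axis (y axis), with 1 point per library, grey for HFD-WT and red or orange for HFD-KO. Hsd3b5 spans 0.472 to 25.8 CPM and its HFD-KO points are 10.3-fold apart, while Hsd3b2 and Hsd3b3 stay within 37.6 to 43.7 and 139.5 to 154 CPM.

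The 3 dehydrogenase genes of the Hsd3b cluster lie on the minus strand of chromosome 3 (GRCm39), Hsd3b5 from 98525950 to 98537568, Hsd3b2 from 98616571 to 98631859 and Hsd3b3 from 98648839 to 98670443. Their enzymes act on the hydroxyl or keto group at the third carbon of steroids, and Hsd3b5 is a form of male mouse liver that acts mainly as a ketosteroid reductase. By the longest open reading frame of GENCODE transcripts, each codes over 1122 bases. Hsd3b2 and Hsd3b3 were identical at 95.1% of these bases, while Hsd3b5 was identical to Hsd3b2 at 80.5% and to Hsd3b3 at 80.2%. The bases just before the RefSeq start listed for each gene are shown because the 3 neighbours differed in level and in how far their libraries differed. They are the 250 bases upstream of the RefSeq start on GRCm38.p6, written 5′ to 3′ along the gene, at chr3:98645535-98645784, chr3:98724544-98724793 and chr3:98763129-98763378 in this order, with the longest run shared by Hsd3b5 and Hsd3b3 in capitals:
Hsd3b5: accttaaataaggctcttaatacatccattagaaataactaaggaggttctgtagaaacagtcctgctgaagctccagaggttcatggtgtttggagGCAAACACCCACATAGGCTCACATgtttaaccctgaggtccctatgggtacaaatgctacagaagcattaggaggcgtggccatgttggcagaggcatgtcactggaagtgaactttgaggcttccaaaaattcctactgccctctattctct
Hsd3b2: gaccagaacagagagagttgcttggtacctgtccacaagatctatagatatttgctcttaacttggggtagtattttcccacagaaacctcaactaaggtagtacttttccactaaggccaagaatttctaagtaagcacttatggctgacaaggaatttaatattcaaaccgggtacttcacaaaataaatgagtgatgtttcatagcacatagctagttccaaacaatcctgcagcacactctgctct
Hsd3b3: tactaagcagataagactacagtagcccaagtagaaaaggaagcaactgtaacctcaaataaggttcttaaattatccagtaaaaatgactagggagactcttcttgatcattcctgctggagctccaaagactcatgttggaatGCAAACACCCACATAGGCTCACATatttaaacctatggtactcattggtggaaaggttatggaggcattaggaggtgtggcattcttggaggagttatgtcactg
For Hsd3b3 the first of 2 listed starts was used. The gap from the upper gene end on GRCm39 to the RefSeq start on GRCm38.p6 was alike for Hsd3b2 and Hsd3b3 but larger for Hsd3b5. If the builds are shifted alike for the 3 genes, the window of Hsd3b5 lies upstream of the gene as counted. It describes the listed start only, and the bases just before the gene as counted were not analysed.

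The best local alignment of the upstream bases of Hsd3b5 and Hsd3b3 held 202 columns, of which 151 (74.8%) were identical. Its run of 24 identical bases began 153 bases before the listed start of Hsd3b5 and 105 bases before that of Hsd3b3. Hsd3b2 aligned with Hsd3b5 over 31 columns and with Hsd3b3 over 38 columns, with no shared run over 8 bases. The letters of known motifs were searched on both strands of 32851 RefSeq promoters, 7 of which matched members. Each held the 250 bases upstream and the first 50 bases of a listed start, for Hsd3b5 the start described above. The letters TTCNNNGAA, bound by STAT5 proteins, were in none of the 7 and in 8.3% of all promoters. The letters AGAACA, the core bound by glucocorticoid and androgen receptors, were in that of Hsd3b2 (19.0% of all promoters). CAAAGTCCA, a motif of HNF4A, was in that of Hsd3b3 (0.475%), and the TATA box letters TATAAA were in those of Akr1c6 and Cyp2d9 (13.6%). These are matches of letters in a short window and describe no binding. The promoters of Cyp17a1, Hsd17b2 and Cyp4a12a were not analysed here.

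Hsd3b5 had 14 and 13 counts in the HFD-WT livers and 679 and 60 in the HFD-KO livers. These came to 0.483 and 0.472 CPM in HFD-WT and 25.8 and 2.51 CPM in HFD-KO replicates 1 and 2. Both HFD-KO livers were above both HFD-WT livers, replicate 1 by 53.9-fold and replicate 2 by 5.26-fold over the HFD-WT mean. The HFD-KO libraries were 10.3-fold apart, whereas the HFD-WT libraries were within 1.02-fold of each other. The log2 fold change was 4.88 ± 1.12. It was 2.38 without HFD-KO replicate 1 and 5.74 without HFD-KO replicate 2, so its size depended on which HFD-KO liver was counted. Both HFD-WT values lay above the floor of 3 counts.

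Hsd3b2 had 41.1 and 40.6 CPM in HFD-WT and 43.7 and 37.6 CPM in HFD-KO livers, with a log2 fold change of -0.01 ± 0.10. Hsd3b3, the most abundant of the cluster, had 149.9 and 150.9 CPM in HFD-WT and 154 and 139.5 CPM in HFD-KO livers, with a log2 fold change of -0.04 ± 0.08. For both genes the HFD-KO values lay on either side of the HFD-WT values. The neighbours of Hsd3b5 thus varied by at most 1.16-fold between libraries of a group.

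Compared per length in the TPM values of the authors, Hsd3b3 led the cluster with 168.5 and 173.8 TPM in HFD-WT and 165.6 and 154.1 TPM in HFD-KO livers. Hsd3b2 followed with between 19.9 and 22.5 TPM. Hsd3b5 had 0.621 and 0.622 TPM in HFD-WT livers, and reached 31.7 TPM in HFD-KO replicate 1, above Hsd3b2, and 3.17 TPM in replicate 2, below it. The order of Hsd3b5 and Hsd3b2 therefore differed between the HFD-KO livers. Hsd3b5 made up 0.325% and 0.316% of the TPM of the chromosome 3 cluster in HFD-WT livers, and 14.4% and 1.79% in HFD-KO livers. Hsd3b3 made up 88.1% and 88.3% of it in HFD-WT and 75.3% and 87.0% in HFD-KO livers.

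The remaining Hsd3b genes of chromosome 3 gave almost no reads. Hsd3b4, Hsd3b6, Hsd3b8 and Hsd3b9 had 0 counts in every library, and Hsd3b1, the form of the gonads and adrenal, had 1 count in all libraries together. Hsd3b7 on chromosome 7, which acts in bile acid synthesis, had 484.7 and 438.9 CPM in HFD-WT and 552.1 and 490.2 CPM in HFD-KO livers (log2 fold change 0.17 ± 0.10, edgeR adjusted p = 0.668). Summed over the chromosome 3 genes, expression was 191.5 and 192.1 CPM in HFD-WT and 223.5 and 179.6 CPM in HFD-KO livers. The log2 ratio of the means was 0.07, and without Hsd3b5 it was -0.03. Windows of 100 bases that also occur in transcripts of another gene made up 7.79% of the windows of Hsd3b5 (mostly shared with Hsd3b4), 6.9% of Hsd3b2 and 12.1% of Hsd3b3. How reads that match several genes were counted is not given in the sources used here, so the values of the 3 genes are uncertain to that extent.

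Cyp17a1 encodes the P450 that hydroxylates the seventeenth carbon of pregnenolone and progesterone and cleaves their side chain on the way to androgens. The gene, on chromosome 19 from 46655604 to 46661611, shared no window of 100 bases with another gene. It had 48.4 and 45.1 CPM in HFD-WT and 60.5 and 134.1 CPM in HFD-KO livers, from between 1240 and 3204 counts per library. Both HFD-KO livers were above both HFD-WT livers, but replicate 1 was 1.29-fold and replicate 2 was 2.87-fold over the HFD-WT mean. The log2 fold change was 1.06 ± 0.31, 1.52 without HFD-KO replicate 1 and 0.37 without HFD-KO replicate 2. The liver that was highest for Cyp17a1 was thus not the one that was highest for Hsd3b5. Per length, Cyp17a1 stood at 39.9 and 38.0 TPM in HFD-WT and 47.7 and 108.5 TPM in HFD-KO livers.

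The 3 reductases did not separate the genotypes. Akr1d1, which reduces the double bond of the first ring in the beta orientation and serves bile acid synthesis, had 174.3 and 168.8 CPM in HFD-WT and 169.5 and 148.8 CPM in HFD-KO livers (log2 fold change -0.11 ± 0.09). Srd5a1, which reduces the same bond in the alpha orientation and converts testosterone to dihydrotestosterone, had 34.1 and 37.0 CPM in HFD-WT and 40.0 and 31.4 CPM in HFD-KO livers (log2 fold change 0.01 ± 0.12). In Srd5a1 both HFD-WT values lay between the HFD-KO values. Akr1c6, an aldo-keto reductase with estradiol dehydrogenase activity, had 708.5 and 738.8 CPM in HFD-WT and 898.2 and 658.9 CPM in HFD-KO livers (log2 fold change 0.11 ± 0.15). Without HFD-KO replicate 1 the log2 fold change of Akr1c6 was -0.13 and without replicate 2 it was 0.31. Akr1c6 shared no 100-base window with another gene, nor did Akr1d1, while Srd5a1 shared 14.9% of its windows with Gm17108. The genes are at chromosome 6 from 37507108 to 37545750 (Akr1d1), and at chromosome 13 from 69721568 to 69759561 (Srd5a1) and from 4484305 to 4507876 (Akr1c6).

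Hsd17b2, which inactivates estradiol and testosterone by oxidation, had 71.1 and 60.5 CPM in HFD-WT and 85.7 and 82.2 CPM in HFD-KO livers. Both HFD-KO livers were above both HFD-WT livers, and the HFD-KO libraries were within 1.04-fold of each other. The log2 fold change was 0.35 ± 0.10 and leaving out any 1 library moved it only within 0.24 to 0.47. Hsd17b2 lies on chromosome 8 from 118428643 to 118485766 and shared no 100-base window with another gene.

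Cyp2d9 and Cyp4a12a are P450 genes of male mouse liver, the former a testosterone hydroxylase and the latter an omega-hydroxylase of fatty acids. Cyp2d9 had the highest expression of the 10 genes, with 1004 and 882.2 CPM in HFD-WT and 1106 and 1013 CPM in HFD-KO livers (log2 fold change 0.17 ± 0.11). Its HFD-KO livers were above the HFD-WT livers, the nearest values being 1004 and 1013 CPM. Cyp4a12a had 60.6 and 176.1 CPM in HFD-WT and 102.3 and 97.2 CPM in HFD-KO livers. Both HFD-KO values lay between the HFD-WT values, which were 2.91-fold apart. Its log2 fold change of -0.25 ± 0.40 became -0.83 without HFD-WT replicate 1 and 0.72 without HFD-WT replicate 2. Cyp2d9, on chromosome 15 from 82317638 to 82341046, shared 10.9% of its windows with other genes, and Cyp4a12a, on chromosome 4 from 115156243 to 115190012, shared 35.8% of them with Cyp4a12b.

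**Figure D2:**
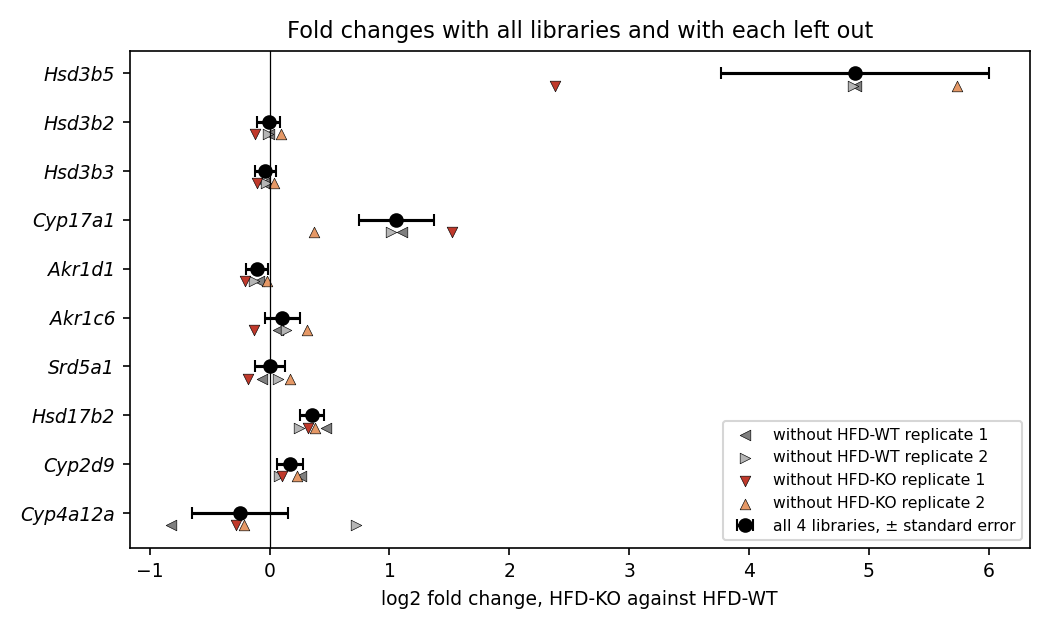
Log2 fold changes from HFD-WT to HFD-KO (x axis) for each gene (y axis), as black points with bars of 1 standard error for all 4 libraries and as coloured triangles with 1 library left out. The triangles of Hsd3b5 and Cyp17a1 spread from 2.38 to 5.74 and from 0.37 to 1.52, those of Cyp4a12a lie on either side of 0, and those of Hsd17b2 stay between 0.24 and 0.47.

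By TPM, Cyp2d9 and Akr1c6 were the most abundant of the 10 genes in every library, with between 905.6 and 1060 TPM and between 752.4 and 998.5 TPM. Cyp2d9 stood above Akr1c6 in each library. Hsd3b3 followed. Akr1d1 had between 107.9 and 128.6 TPM, which Cyp4a12a exceeded in HFD-WT replicate 2 and Cyp17a1 in HFD-KO replicate 2. Below these, the order changed with the library: Hsd17b2 had between 67.5 and 89.2 TPM, Cyp4a12a between 49.8 and 148.4 TPM, and Cyp17a1 between 38.0 and 108.5 TPM, and their ranges overlapped. Srd5a1 with between 23.2 and 28.8 TPM was next to Hsd3b2, and Hsd3b5 was the lowest in all libraries but HFD-KO replicate 1.

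HFD-KO replicate 2 was below replicate 1 for 9 of the 10 genes, Cyp17a1 being the exception (50.7% of all genes tested were below). A difference of at least 2-fold between the HFD-KO libraries was found for 2 genes, Hsd3b5 and Cyp17a1 (4.03% of all genes tested), and between the HFD-WT libraries for 1, Cyp4a12a (2.16%). The other 8 genes differed by at most 1.36-fold between the HFD-KO libraries, a comparison of 1 library with 1 that has no test. The direction of the log2 fold change was positive for 6 genes (51.6% of all genes tested).

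The rest of these enzyme families was taken from lists drawn up by family, with earlier results of these data known. Counts over these and the later lists are thus a description and not an independent test. The counts of each list are to be read against all genes tested, of which 0.0771% had an adjusted p under 0.05 by edgeR (0.054% higher in HFD-KO) and 8.98% an unadjusted p under 0.05 (4.25% higher and 4.73% lower), while 0.881% of genes with an adjusted p by DESeq2 were called. Among 12 other hydroxysteroid dehydrogenases of the Hsd17b and Hsd11b families in the table, 8 were tested and 0 had an adjusted p under 0.05 by edgeR, with 1 higher and 1 lower at an unadjusted p under 0.05 (4.25% and 4.73% of all genes tested) and 1 called by DESeq2 (0.881%). That gene was Hsd17b13, a lipid droplet protein, with 542.3 and 603.9 CPM in HFD-WT and 452.7 and 398.5 CPM in HFD-KO livers (log2 fold change -0.43 ± 0.10, edgeR adjusted p = 0.289 and 0.023 by DESeq2). Hsd17b7, which also acts in cholesterol synthesis, had a log2 fold change of 0.39 ± 0.15 (edgeR adjusted p = 0.512). Hsd17b4, a peroxisomal enzyme of fatty acid oxidation, had one of -0.15 ± 0.09. Hsd11b1, which regenerates active glucocorticoid, had 393.7 and 397.5 CPM in HFD-WT and 424.2 and 418 CPM in HFD-KO livers, and its counterpart Hsd11b2 had 0 counts.

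None of the 7 tested genes among the other aldo-keto reductases and steroid reductases had an adjusted p under 0.05 by edgeR, and 0 passed at an unadjusted p under 0.05 or by DESeq2. Akr1c13 had 85.7 and 86.0 CPM in HFD-WT and 83.6 and 80.4 CPM in HFD-KO livers. Of 9 tested P450, carrier and electron donor genes of steroid and oxysterol metabolism, 0 were called by edgeR or by DESeq2, with 1 higher and 1 lower at an unadjusted p under 0.05 (4.25% and 4.73% of all genes tested). The higher gene was Cyp7b1, an oxysterol hydroxylase, with 43.5 and 43.4 CPM in HFD-WT and 86.8 and 53.4 CPM in HFD-KO livers (log2 fold change 0.69 ± 0.20, edgeR adjusted p = 0.378). As with Hsd3b5, HFD-KO replicate 1 was the higher of the HFD-KO livers for Cyp7b1. Cyb5r3 and Por, which pass electrons to desaturases and to P450 enzymes, had log2 fold changes of -0.29 ± 0.12 and -0.21 ± 0.10 (adjusted p = 0.522 and 0.607 by edgeR).

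Of the 6 other Cyp2d genes tested, 0 were called by edgeR or DESeq2 (0.0771% and 0.881% of all genes), with 2 higher and 0 lower at an unadjusted p under 0.05 (4.25% and 4.73%). Cyp2d13, Cyp2d40 and Cyp2d10 had log2 fold changes of 0.39 ± 0.11, 0.25 ± 0.09 and 0.13 ± 0.10, and for each both HFD-KO livers were above both HFD-WT livers, as for Cyp2d9 and for 20.5% of all genes tested. Of the 5 other Cyp4a genes tested, 0 were called by edgeR and 1 by DESeq2 (0.0771% and 0.881% of all genes), with 2 higher and 0 lower at an unadjusted p under 0.05 (4.25% and 4.73%). Cyp4a14, an omega-hydroxylase under the control of PPARα, had 1853 and 1564 CPM in HFD-WT and 2133 and 2684 CPM in HFD-KO livers (log2 fold change 0.50 ± 0.15, edgeR adjusted p = 0.400 and 0.042 by DESeq2). Cyp4a12b, the close copy of Cyp4a12a, had 9.39 and 8.79 CPM in HFD-WT and 10.4 and 11.4 CPM in HFD-KO livers. It thus did not show the 2.91-fold difference between the HFD-WT libraries seen for Cyp4a12a. The medians of the log2 fold change were -0.02, -0.04, 0.03, 0.10 and 0.26 over these 5 lists in turn, beside 0.01 over all genes tested.

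**Figure D3:**
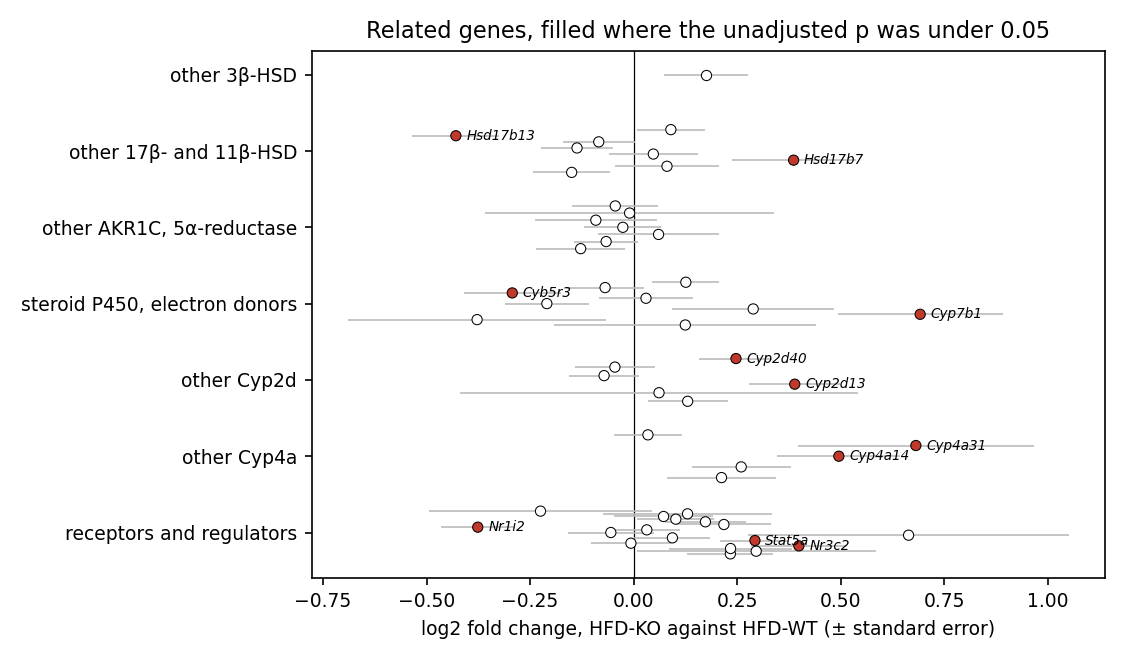
Log2 fold changes from HFD-WT to HFD-KO (x axis) with bars of 1 standard error for each tested gene of 7 lists (y axis), filled where the unadjusted p by edgeR was under 0.05. The filled points of the Cyp2d and Cyp4a lists are all on the higher side.

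Other genes known to differ between male and female mouse liver were set beside the 10 genes, since several of the 10 share that property. Their lists were likewise drawn up with earlier results of these data known. Cyp7b1, Cyp4a12b and Hsd17b6 of the male-biased list also stand in the lists above. Of 19 tested male-biased genes, 1 had an adjusted p under 0.05 by edgeR and 4 by DESeq2 (0.0771% and 0.881% of all genes), and 8 were higher and 1 lower at an unadjusted p under 0.05 (4.25% and 4.73% of all genes tested), with a median log2 fold change of 0.27 beside 0.01 over all genes tested. Slco1a1, an organic anion transporter of the list, was the gene called by edgeR, with 18.5 and 17.9 CPM in HFD-WT and 59.3 and 58.0 CPM in HFD-KO livers (log2 fold change 1.69 ± 0.08, edgeR adjusted p = 0.0013 and 2.7e-33 by DESeq2). Its HFD-KO livers were level, unlike those of Hsd3b5. Serpina1e, a serpin, had 94.9 and 252.1 CPM in HFD-WT and 833.8 and 1597 CPM in HFD-KO livers (log2 fold change 2.81 ± 0.47, edgeR adjusted p = 0.141 and 0.049 by DESeq2). The 4 genes called by DESeq2, all higher in HFD-KO, were Slco1a1, Serpina1e, C8b and Susd4. C8b and Susd4, named after their values were seen, had log2 fold changes of 0.68 ± 0.13 and 0.77 ± 0.11 (adjusted p = 0.225 and 0.087 by edgeR and 0.0022 and 0.012 by DESeq2). Egfr, the epidermal growth factor receptor, had 80.0 and 89.4 CPM in HFD-WT and 103.8 and 186.2 CPM in HFD-KO livers, with the higher HFD-KO value in the same liver as for Cyp17a1. Selenbp2, named after its values were seen, had 18.2 and 35.9 CPM in HFD-WT and 107.1 and 20.1 CPM in HFD-KO livers, so replicate 1 was the higher, as for Hsd3b5.

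Of 20 tested female-biased genes, 0 had an adjusted p under 0.05 by edgeR and 4 by DESeq2 (0.0771% and 0.881% of all genes), and 6 were higher and 6 lower at an unadjusted p under 0.05 (4.25% and 4.73%), with a median log2 fold change of -0.27. The 4 genes called by DESeq2 were all lower in HFD-KO. Besides Cyp2b10 they were the P450 genes Cyp2a4 and Cyp2a22 and the receptor gene Ntrk2, named after their values were seen. Cyp2a4 had 21.2 and 18.9 CPM in HFD-WT and 9.95 and 7.37 CPM in HFD-KO livers (log2 fold change -1.21 ± 0.15, adjusted p = 0.058 by edgeR and 4.1e-06 by DESeq2). Cyp2a22 and Ntrk2 had log2 fold changes of -0.66 ± 0.12 and -1.15 ± 0.19 (adjusted p = 0.209 and 0.121 by edgeR and 0.0056 and 0.00032 by DESeq2). The fourth was Cyp2b10, a P450 induced through the receptor CAR, with 5.35 and 7.96 CPM in HFD-WT and 1.22 and 3.22 CPM in HFD-KO livers (log2 fold change -1.60 ± 0.40, edgeR adjusted p = 0.329 and 0.027 by DESeq2). The higher genes were called by neither tool. Cyp2c69 had 0.0345 and 0.109 CPM in HFD-WT and 0.494 and 5.11 CPM in HFD-KO livers, from 1, 3, 13 and 122 counts, so the HFD-WT values are at or under the floor. Cyp2c40 had 0.690 and 0.727 CPM in HFD-WT and 1.48 and 8.46 CPM in HFD-KO livers (log2 fold change 2.79 ± 0.77, edgeR adjusted p = 0.360). Cux2, a transcription factor of female liver named after its values were seen, had 0.483 and 0.327 CPM in HFD-WT and 0.380 and 10.4 CPM in HFD-KO livers. For Cyp2c69, Cyp2c40 and Cux2 the high liver was HFD-KO replicate 2, in which Hsd3b5 was 10.3-fold lower than in replicate 1. Over the lists, 14 of 19 male-biased genes were higher in HFD-KO replicate 1 than in replicate 2, and 5 were higher in replicate 2. Of 20 female-biased genes, 14 were higher in replicate 2 and 6 in replicate 1. Of all 12967 genes tested, 6579 were higher in replicate 1 and 6386 in replicate 2. The difference between the HFD-KO livers has no replicate and was not tested.

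**Figure D4:**
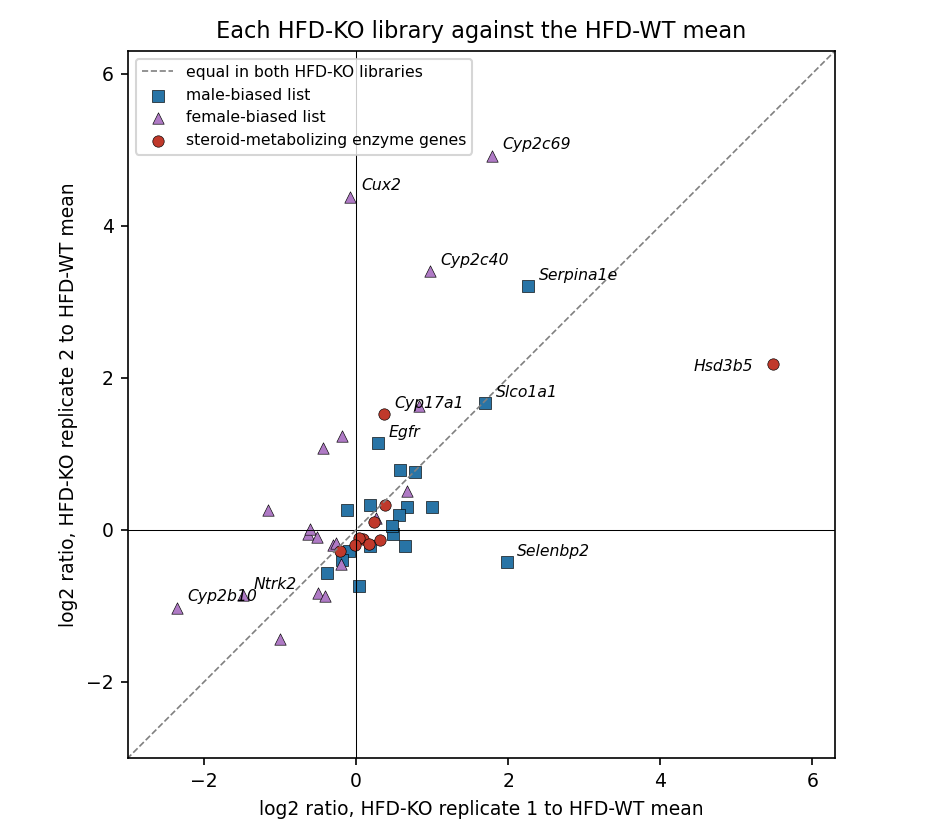
The log2 ratio of HFD-KO replicate 1 (x axis) and of HFD-KO replicate 2 (y axis) to the HFD-WT mean, after adding 0.1 CPM, for the 10 enzyme genes (circles), 19 male-biased genes (squares) and 20 female-biased genes (triangles), with a dashed line where both are equal. Hsd3b5 and Selenbp2 lie to the right of the line, Cux2, Cyp2c69, Cyp2c40 and Cyp17a1 above it, and Slco1a1 on it.

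Of 17 tested receptors and transcription factors that act on liver steroid enzymes, 0 had an adjusted p under 0.05 by edgeR or DESeq2 (0.0771% and 0.881% of all genes), and 2 were higher and 1 lower at an unadjusted p under 0.05 (4.25% and 4.73%), with a median log2 fold change of 0.13 beside 0.01 over all genes tested. Nr1i2, the pregnane X receptor, had 107.7 and 114.2 CPM in HFD-WT and 80.9 and 90.0 CPM in HFD-KO livers (log2 fold change -0.38 ± 0.09, edgeR adjusted p = 0.271). Nr3c2, the mineralocorticoid receptor, and Stat5a had log2 fold changes of 0.40 ± 0.12 and 0.29 ± 0.08 (adjusted p = 0.383 and 0.370 by edgeR). The growth hormone receptor Ghr had 374.7 and 372.5 CPM in HFD-WT and 398 and 345.8 CPM in HFD-KO livers, and Stat5b had 61.9 and 61.1 CPM in HFD-WT and 61.3 and 69.9 CPM in HFD-KO livers. Bcl6, a transcriptional repressor named after its values were seen, had 14.4 and 29.8 CPM in HFD-WT and 46.7 and 22.9 CPM in HFD-KO livers. The progesterone receptor Pgr had 0 counts.

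Markers of other cells were measured beside these genes. Of 12 markers of adrenal and gonadal steroid-making cells, 8 had at most 3 counts in any library, and Cyp11b2, Nr5a1, Mc2r and Lhcgr had 0. Cyp11a1, which starts steroid synthesis, had 0 and 0 counts in HFD-WT and 1 and 1 in HFD-KO livers, which allows no comparison. The list summed to between 44.4 and 51.9 CPM. Most of it came from Mrap, a melanocortin receptor accessory protein, with between 38.3 and 46.7 CPM. Cyp21a1 followed with between 2.66 and 5.63 CPM, and Star with between 1.05 and 1.26 CPM. Of 12 macrophage markers, 10 had both HFD-KO livers below both HFD-WT livers (20.4% of all genes tested did), and the 12 summed to 490.5 and 614.6 CPM in HFD-WT and 400.4 and 381.2 CPM in HFD-KO livers. The 10 stellate cell markers summed to 402.4 and 447.2 CPM in HFD-WT and 350.6 and 259.2 CPM in HFD-KO livers. The 10 B and plasma cell markers summed to 166.4 and 148 CPM in HFD-WT and 269.7 and 202.5 CPM in HFD-KO livers. Most of each sum came from 1 gene, Xbp1, which ranged from 130.5 CPM (HFD-WT replicate 2) to 177 CPM (HFD-KO replicate 2). The sum of HFD-KO replicate 2 is therefore not read as more B or plasma cell RNA. Ighm, the IgM heavy chain, had 73.9 CPM in HFD-KO replicate 1 and between 7.45 and 7.85 CPM elsewhere. Ighm was thus high in the same liver as Hsd3b5. The 5 hemoglobin and red cell genes summed to 756.8 and 600.2 CPM in HFD-WT and 810.3 and 1146 CPM in HFD-KO livers. The 10 endothelial markers summed to 401.3 and 451.7 CPM in HFD-WT and 393.4 and 398.5 CPM in HFD-KO livers. The 8 cholangiocyte markers summed to 86.3 and 106.1 CPM in HFD-WT and 77.5 and 65.9 CPM in HFD-KO livers. Most of the latter came from Spp1, with between 42.8 and 83.9 CPM. The part of these cells in the values of the enzyme genes was not tested.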

How the data were processed

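Liver RNA of 2 HFD-WT and 2 HFD-KO libraries was measured by RNA-seq. The authors prepared directional MGI Tech libraries, sequenced paired ends, aligned the reads to mm10 and counted them per GENCODE gene with Partek Genomics Suite. The tools' versions, use of strand and handling of reads with several matches are not given in the sources used here. The table gives gene positions on GRCm39. The deposited counts are whole reads per gene without normalization, and only these were tested. The TPM values deposited by the authors, scaled by gene length, were used to compare genes. The deposited RPKM values and a deposited CPM score on an adjusted library size were not used.

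Groups and replicate numbers came from the sample labels. CPM were computed from the counts with TMM-adjusted totals (24480798 to 28691330 counts per library before adjustment). Genotypes were compared by edgeR 4.0.16 (R 4.3.3; filterByExpr, quasi-likelihood test, two-sided, Benjamini-Hochberg over 12967 genes), with DESeq2 1.42.0 as an alternative. edgeR estimated a common biological coefficient of variation of 0.102, with 5.34 prior degrees of freedom. The standard error was the size of the log2 fold change divided by the square root of the F statistic of the edgeR test. For the 10 genes it is given as a description of spread only. Alternatives were other scaling, no filter, the replicate number as a block, and each library left out. The 10 genes and all lists were chosen with earlier results of these data known, so no test is given for the 10. Named genes were those 10, Adarb1, listed genes with an adjusted p under 0.05, and up to 3 genes per list with the largest change among those with a mean of at least 1 CPM and non-overlapping groups. Exceptions are stated, and other listed genes were named for their role. Windows of 100 bases and open reading frames came from GENCODE M21 transcripts, and promoters, matched by symbol for 7 of 10 genes, from RefSeq on GRCm38.p6. Figures were drawn with matplotlib 3.10.9.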

Additional observations from a re-analysis of the deposited data

How the results depend on the processing

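Of 90 log2 fold changes of the 10 enzyme genes recomputed under 9 alternatives, 83 stayed within 1 SD of the values given, and the other 7 came from leaving out a library. The SD was that of the gene's log2 CPM within groups, so it was wide where replicates differed. With 2 libraries per group, leaving 1 out moves a value by about this SD or less. The count of 83 therefore does not measure stability. Hsd3b5, for instance, counted as within it when it went from 4.88 to 5.74 without HFD-KO replicate 2. A change of sign could fall within it, as for Hsd3b2, which went from -0.01 to 0.09 without HFD-KO replicate 2. The number of the 10 genes with a positive log2 fold change, 6, was 5 to 6 under other scalings, tools, filters and the replicate block, and ranged from 4 without HFD-KO replicate 1 to 8 without HFD-KO replicate 2. The summed Hsd3b family had a log2 ratio of 0.14. It was between 0.04 and 0.25 with a library left out, and 0.10 by library size alone. With the chromosome 3 genes alone, a choice made after seeing the data, it was 0.07. Most of the family sum of 631 to 775.5 CPM came from Hsd3b7, with between 438.9 and 552.1 CPM. The sum thus says little about the chromosome 3 genes.

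Over all genes, 10 were called at an adjusted p under 0.05 (7 higher, 3 lower). Library size alone gave 6 (4 higher), DESeq2 117 (56 higher, 61 lower), no filter 162 (81 higher, 81 lower), and the replicate block 20 (12 higher, 8 lower). With a library left out the count ranged from 0 without HFD-WT replicate 2 to 705 without HFD-KO replicate 1 (0 to 376 higher, 0 to 329 lower), and was 411 without HFD-KO replicate 2. Such fits have a lone library in 1 group, assumed to vary like the other group. At an unadjusted p under 0.05 the count was 1164, 462 without HFD-WT replicate 2 and 2173 without HFD-KO replicate 1. The male-biased list had 1 gene called, 4 by DESeq2, 4 with no filter, 2 with the replicate block and 0 to 11 with a library left out. The female-biased list had 0, with 4, 6, 1 and 0 to 10 in the same order. The Hsd17b and Hsd11b list and the Cyp4a list had 0, and 1 by DESeq2. With a library left out these had 0 to 1 and 0 to 2, the reductase and Cyp2d lists 0 to 1, the P450 list 0 to 2 and the receptor list 0 to 5. The cause of these changes was not tested. The replicate numbers share no stated origin, and deviations of same-numbered libraries correlated at -0.08, so the block is given only here.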

Other observations

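The genes nearest to Hsd3b5 and Cyp17a1 in profile were sought among 7611 genes with a mean of at least 10 CPM, by the Euclidean distance of log2 CPM values centred per gene over the 4 libraries. The nearest genes to Cyp17a1 were Efna1, an ephrin, Slc1a4, an amino acid transporter, Fgl1, a secreted fibrinogen-like protein of hepatocytes, Igfbp2, an insulin-like growth factor binding protein, and Egfr, at distances of 0.29 to 0.37. Fgl1 had 253.9 and 214.2 CPM in HFD-WT and 240.3 and 573 CPM in HFD-KO livers. Igfbp2 had 175.7 and 134.5 CPM in HFD-WT and 228.1 and 380.3 CPM in HFD-KO livers. All 5 were highest in HFD-KO replicate 2, as the measure of likeness requires.

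The 5 genes nearest to Hsd3b5 among the 7611 were at distances of 2.25 to 2.89. They were the immunoglobulin genes Ighm and Igkc and the major urinary protein genes Mup7, Mup12 and Mup11. Hsd3b5, with 0.483 and 0.472 CPM in HFD-WT and 25.8 and 2.51 CPM in HFD-KO livers, would itself miss the cutoff of 10 CPM. Genes at its level were thus left out of the search. The distance also grows with the spread of a profile, so the distances for Hsd3b5 and Cyp17a1 are not comparable. Mup11 had 701.2 and 450.6 CPM in HFD-WT and 2244 and 1412 CPM in HFD-KO livers. Ighm had 7.77 and 7.85 CPM in HFD-WT and 73.9 and 7.45 CPM in HFD-KO livers. Ighm and Igkc thus shared the high value in HFD-KO replicate 1, whereas the Mup genes were higher in both HFD-KO livers. Mup genes are near-identical copies, so their single values are uncertain. With 4 libraries, many genes can share a profile, and the likeness has no test.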
